A study of Mus musculus with 4 samples.

Results

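The imprinted Dlk1-Dio3 locus of mouse chromosome 12 carries one of the largest groups of miRs in the genome. Its members were taken from the deposited table as every mature miR whose number belongs to the locus, in a list of 46 miR numbers set by name and not by level. Of 568 mature miRs in the table, 8 carried such a number, and each of the 8 came from a different hairpin. For comparison, RefSeq annotates 93 mature miRs from 49 hairpins under these numbers, 27 of them from miR-770 to miR-370 and 66 from miR-379 to miR-410. Members of the other 38 numbers were not analysed here. No hairpin had both arms listed.

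MiRs were measured in bone marrow-derived proangiogenic cells (PACs), cells of the marrow that adhere to fibronectin in culture and support the growth of vessels. All mice had hindlimb ischemia by removal of the femoral artery, and their PACs were cultured for 4 days. The aging library came from 16-month-old C57Bl/6 mice, the SMK library from 2-month-old C57Bl/6 mice exposed to cigarette smoke, and the HC library from 2-month-old hypercholesterolemic APOE-/- mice fed a Western-type diet. The CTL library came from healthy 2-month-old C57Bl/6 mice. Each condition was 1 library of pooled RNA, from 2 samples for aging, 4 for SMK, 4 for HC and 6 for CTL in the sample labels, whereas the methods describe larger pools for aging. Diet and APOE loss occur together in HC and cannot be told apart.

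With 1 library per condition there was no test of a condition, and no p-value is given. Levels are the authors' RPM (mapped reads scaled to library size), and every value was a whole multiple of the smallest value of its library, which was taken as 1 count. A single count was worth 0.637 RPM in aging, 0.599 RPM in SMK, 0.962 RPM in HC and 0.393 RPM in CTL. Library totals ranged from 1038986 counts in HC to 2541732 in CTL. A fold is the RPM of a cardiovascular risk factor (CRF) library over that of CTL. Each fold is followed by its exact 95% interval in parentheses, from the conditional binomial distribution of the 2 counts. Such an interval holds counting error alone, so it sets 1 library against another and says nothing of mice. Folds below 0.8 were taken as lower and above 1.6 as higher, the limits of the study. The 8 members summed to 161 counts in aging, 192 in SMK, 147 in HC and 184 in CTL, so that single members rested on few counts. All listed miRs had at least 1 count in each library, and miRs absent from a library were not analysed here.

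In an imprinted locus only the copy from 1 parent is active. At Dlk1-Dio3 the protein genes Dlk1, Rtl1 and Dio3 are expressed from the paternal chromosome, whereas the noncoding RNAs Meg3, Rian and Mirg, together with the miRs, come from the maternal chromosome. The miRs are strongly expressed in embryo, placenta and brain, the locus is active in hematopoietic stem cells, and in mice the inhibition of several of its miRs has been reported to improve blood flow after hindlimb ischemia. MiR-127 is made antisense to Rtl1, matches its transcript perfectly and represses it.

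The mature sequences of all 8 members are given in order along the locus, because their base composition and seeds bear on the results. The capitals mark the seed, bases 2 to 8 from the 5′ end, which selects the targets of a miR (RefSeq, GRCm38.p6).
miR-770-5p: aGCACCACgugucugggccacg
miR-127-3p: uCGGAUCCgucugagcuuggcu
miR-370-3p: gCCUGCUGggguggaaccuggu
miR-379-5p: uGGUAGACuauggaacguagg
miR-411-5p: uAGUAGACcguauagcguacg
miR-300-5p: uUGAAGAGagguuauccuuugu
miR-541-5p: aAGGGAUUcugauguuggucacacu
miR-369-3p: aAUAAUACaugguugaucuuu

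All 8 lie on the plus strand of chromosome 12. MiR-770-5p (chr12:109563710-109563731) is made within Meg3 transcripts, where its hairpin is exonic in some and intronic in others. MiR-127-3p (chr12:109592888-109592909) lies antisense to an exon of Rtl1. MiR-370-3p (chr12:109618305-109618326) lies in an intron of Rian. These 3 are called the Meg3 end of the locus. A gap of 90.7 kb without listed members follows. The other 5 are called the Mirg end. MiR-379-5p (chr12:109709065-109709085) and miR-411-5p (chr12:109710190-109710210) are neighbours, and miR-300-5p (chr12:109724318-109724339) comes next. GENCODE M21 has no host transcript for these 3 hairpins. MiR-541-5p (chr12:109742422-109742446) lies in an intron of Mirg, and miR-369-3p (chr12:109743466-109743486) in Mirg transcripts, exonic or intronic.

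No seed was shared among the 8 members. The seeds of miR-379-5p and miR-411-5p differ by a single base, G2A (the base of miR-379-5p, its position from the 5′ end, then the base of miR-411-5p), and the mature sequences by 7 bases. The seed of miR-379-5p also occurs in miR-1193-5p of the same locus and that of miR-411-5p in miR-7229-5p, and neither of these is in the table. The nearest mature miR in RefSeq differed from a member by at least 4 bases, that pair being miR-369-3p and miR-154-3p. The mapping allowed up to 2 mismatches, and whether reads were assigned to the wrong miR was not tested. The GC content of the mature miRs was 59.1% to 68.2% at the Meg3 end and 23.8% to 47.6% at the Mirg end.

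The main pattern was a split of the locus, which at the Mirg end rested mainly on 2 neighbouring miRs. In aging and in HC, the 3 miRs of the Meg3 end were higher than in CTL, as were 41.5% and 43.5% of all 568 miRs. In both, 4 of the 5 miRs of the Mirg end were lower, as were 24.8% and 22.5% of all miRs. Of these 4, the interval lay below 1 only for miR-379-5p and miR-411-5p in aging and for miR-411-5p in HC. In SMK, both ends stayed close to or above CTL. The Meg3 end summed to 89.9 RPM in aging PACs, 60.5 RPM in SMK PACs and 124.2 RPM in HC PACs, against 29.5 RPM in CTL PACs. Its folds were 3.05 (2.29 to 4.09) in aging, 2.05 (1.51 to 2.80) in SMK and 4.21 (3.14 to 5.67) in HC. The Mirg end summed to 12.7 RPM in aging PACs, 54.5 RPM in SMK PACs and 17.3 RPM in HC PACs, against 42.9 RPM in CTL PACs. Its folds were 0.297 (0.175 to 0.482) in aging, 1.27 (0.951 to 1.69) in SMK and 0.404 (0.231 to 0.669) in HC. The counting intervals of the Mirg end in aging and HC did not overlap those in SMK and CTL. Most of this came from the neighbours miR-379-5p and miR-411-5p. Without both, the Mirg end was at 11.5 RPM (18 counts) in aging, 16.8 RPM (28 counts) in SMK and 6.74 RPM (7 counts) in HC, against 12.6 RPM (32 counts) in CTL. In aging the remaining 3 miRs were at 0.911-fold (0.482 to 1.67), with 11 of their 18 counts from miR-369-3p. MiR-300-5p and miR-541-5p were still at 0.324-fold and 0.476-fold there, with intervals that hold 1. In HC the remaining 3 miRs were at 0.535-fold, with an interval (0.199 to 1.23) that holds 1.

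The share of the members' counts that came from the Mirg end does not depend on the scaling between libraries. This share is not free of the trend with GC content given below, because the Meg3 end is richer in GC. It was 12.4% in aging (20 of 161 counts, exact binomial 95% interval 7.76 to 18.5), 47.4% in SMK (91 of 192, 40.2 to 54.7), 12.2% in HC (18 of 147, 7.42 to 18.7) and 59.2% in CTL (109 of 184, 51.8 to 66.4). Aging and HC were close to each other and well below SMK and CTL, whose intervals overlapped each other.

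**Figure D1:**
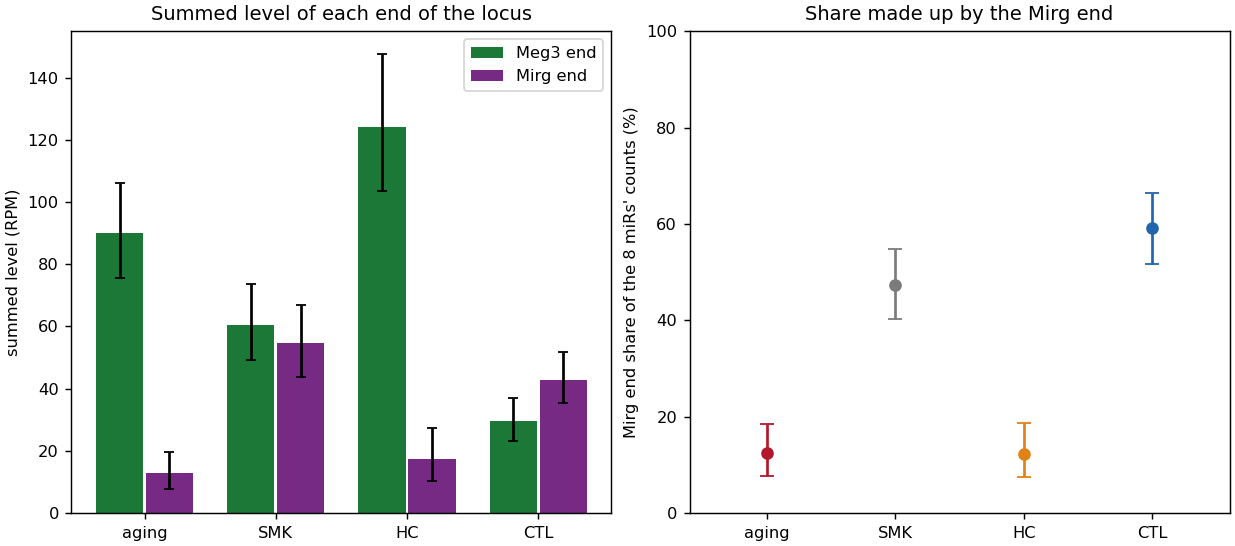
Left, summed RPM of the 3 miRs of the Meg3 end and the 5 miRs of the Mirg end in each library, with bars from 0 and exact 95% Poisson intervals. Right, the share of the 8 miRs' counts that came from the Mirg end with its exact binomial 95% interval, which was 12.4% in aging and 12.2% in HC, against 59.2% in CTL.

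As the split cancels in a sum over the locus, the total of the 8 members gives a poor account of them. It was 102.6 RPM in aging (1.42-fold, 1.14 to 1.76), 115.0 RPM in SMK (1.59-fold, 1.29 to 1.95) and 141.5 RPM in HC (1.95-fold, 1.56 to 2.44), against 72.4 RPM in CTL. This was at most 0.0141% of a library. Without miR-127-3p the total was at 0.861-fold in aging and 1.30-fold in HC. In aging the 8 members had a median log2 fold of 0.16, beside 0.40 over all 568 miRs. In SMK it was 0.62, beside 0.28, and in HC -0.41, beside 0.45.

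MiR-127-3p was the most abundant member. It was at 54.2 RPM (85 counts) in aging, 38.9 RPM (65 counts) in SMK and 68.3 RPM (71 counts) in HC, against 16.1 RPM (41 counts) in CTL. All 3 CRF libraries were above CTL, at 3.36-fold (2.29 to 5.002) in aging, 2.41-fold (1.61 to 3.66) in SMK and 4.24-fold (2.84 to 6.38) in HC. It was the only member whose interval lay wholly above 1.6 in each comparison. The order was HC, aging, SMK and CTL, and only SMK and CTL differed beyond counting error as neighbours. Library totals ran the other way, at 1038986 counts in HC, 1568958 in aging, 1670010 in SMK and 2541732 in CTL. The part of library size in this order was not tested.

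MiR-770-5p, from Meg3 itself, was at 23.6 RPM (37 counts) in aging, 14.4 RPM (24 counts) in SMK and 36.6 RPM (38 counts) in HC, against 9.05 RPM (23 counts) in CTL. The order of the libraries was that of miR-127-3p, but no neighbours in it differed beyond counting error. Its folds were 2.61 (1.51 to 4.59) in aging, 1.59 (0.859 to 2.94) in SMK and 4.04 (2.35 to 7.11) in HC.

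MiR-370-3p, which has been reported to repress the fatty acid carrier enzyme CPT1A in human liver cells, was the rarest of the Meg3 end. It was at 12.1 RPM (19 counts) in aging, 7.19 RPM (12 counts) in SMK and 19.2 RPM (20 counts) in HC, against 4.33 RPM (11 counts) in CTL. The same order was seen, again with no neighbours apart beyond counting error. Its folds were 2.80 (1.27 to 6.51) in aging, 1.66 (0.671 to 4.15) in SMK and 4.45 (2.03 to 10.3) in HC.

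The ratio of miR-127-3p to miR-770-5p within a library was 2.30 (1.54 to 3.48) in aging and 2.71 (1.67 to 4.52) in SMK. It was 1.87 (1.24 to 2.85) in HC and 1.78 (1.04 to 3.11) in CTL. The 4 counting intervals overlapped, but they are too wide to show a constant ratio. The ratio of miR-127-3p to miR-379-5p, across the gap, was 85.0 (14.9 to 3396) in aging, 1.59 (1.06 to 2.40) in SMK, 7.89 (3.93 to 18.0) in HC and 0.976 (0.619 to 1.54) in CTL. The intervals of aging and HC lay above those of SMK and CTL.

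MiR-379-5p opens the Mirg end, and in mouse liver this group of miRs has been reported to answer to glucocorticoids. It was at 0.637 RPM in aging, which is a single count, at 24.6 RPM (41 counts) in SMK and at 8.66 RPM (9 counts) in HC, against 16.5 RPM (42 counts) in CTL. The aging library was far below the other 3, at 0.0386-fold (0.000954 to 0.227). Of all 568 miRs only miR-7090-3p had a lower fold in aging. MiR-379-5p was at 1.49-fold (0.942 to 2.34) in SMK and at 0.524-fold (0.224 to 1.09) in HC, where the interval holds 1.

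MiR-411-5p, its neighbour, had a similar profile. It was at 0.637 RPM (1 count) in aging, 13.2 RPM (22 counts) in SMK and 1.92 RPM (2 counts) in HC, against 13.8 RPM (35 counts) in CTL. Aging and HC were low, while SMK and CTL could not be told apart at this depth. Its folds were 0.0463 (0.00114 to 0.275) in aging, 0.957 (0.535 to 1.68) in SMK and 0.140 (0.0163 to 0.544) in HC. It had the third lowest fold of all 568 miRs in aging and also in HC. MiR-379-5p had 1.86 times the counts of miR-411-5p in SMK (1.08 to 3.29) and 1.20 times in CTL (0.748 to 1.94), and in aging and HC the counts were too few to tell their ratio.

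MiR-541-5p was at 3.19 RPM (5 counts) in aging, 14.4 RPM (24 counts) in SMK and 3.85 RPM (4 counts) in HC, against 6.69 RPM (17 counts) in CTL. Its order of libraries, with SMK above CTL and both above HC and aging, was that of miR-379-5p. It was at 2.15-fold (1.11 to 4.26) in SMK, and the intervals held 1 in aging (0.476-fold, 0.137 to 1.35) and in HC (0.576-fold, 0.141 to 1.76).

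MiR-300-5p was at 1.27 RPM (2 counts) in aging, 1.20 RPM (2 counts) in SMK and 0.962 RPM (1 count) in HC, against 3.93 RPM (10 counts) in CTL. All 3 folds lay between 0.245 and 0.324, with intervals that held 1. Unlike the other members of the Mirg end, miR-369-3p was highest in aging. This miR is known to bind AU-rich elements of the TNF transcript in human cells. It was at 7.01 RPM (11 counts) in aging, 1.20 RPM (2 counts) in SMK and 1.92 RPM (2 counts) in HC, against 1.97 RPM (5 counts) in CTL. The fold in aging was 3.56 (1.14 to 13.1). Levels of these 2 miRs in SMK and HC rested on 1 or 2 counts and allow no order.

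**Figure D2:**
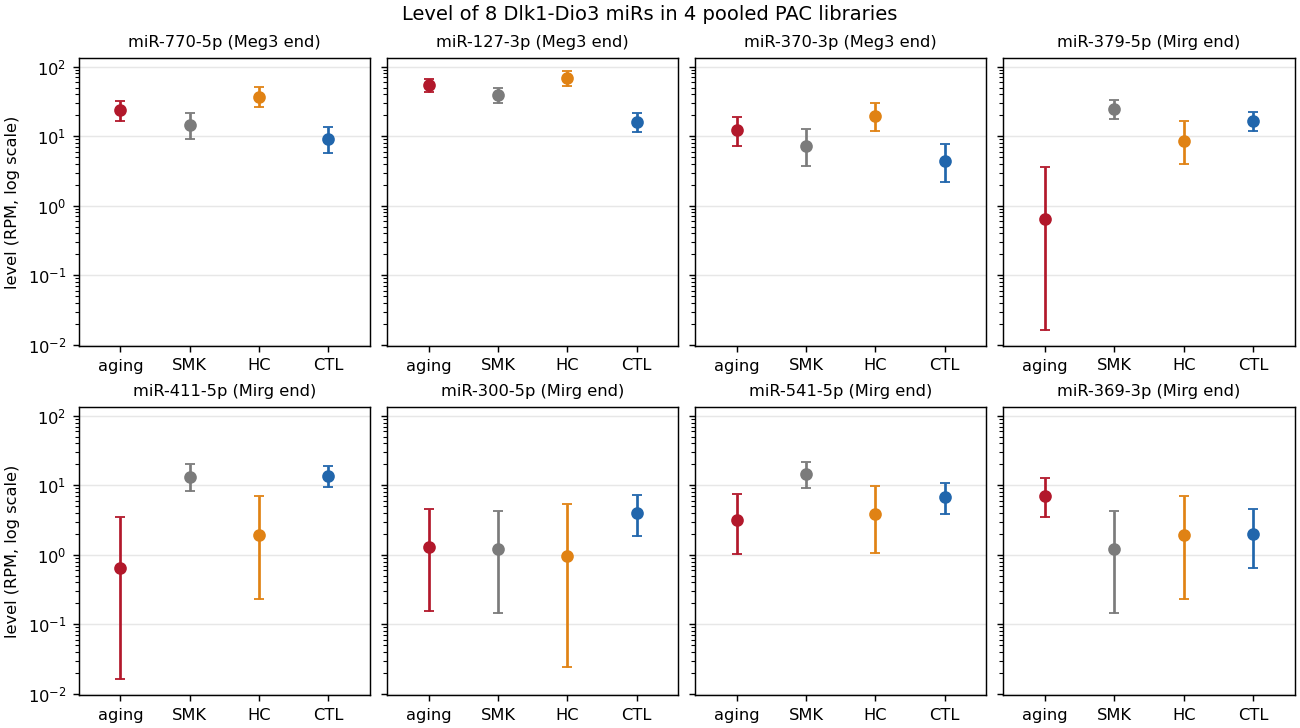
RPM of each member on a log scale in the aging, SMK, HC and CTL libraries, 1 point per library with its exact 95% Poisson interval. MiR-127-3p is at 54.2 RPM in aging, against 16.1 RPM in CTL, while miR-379-5p is at 0.637 RPM in aging, against 16.5 RPM in CTL.

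In aging, 4 of the 8 members were lower and 4 were higher than in CTL. Among all 568 miRs without a minimum level, 24.8% were lower and 41.5% were higher. Among 371 miRs with at least 10 RPM in aging or CTL, 22.9% were lower and 40.4% were higher, and of the members miR-379-5p and miR-411-5p were lower and miR-127-3p, miR-770-5p and miR-370-3p were higher. Of these 5, only miR-127-3p reached 10 RPM in both libraries. MiR-770-5p and miR-370-3p reached it only in aging and miR-379-5p and miR-411-5p only in CTL, so that the minimum fixed the direction of these 4. The exact interval lay wholly past a limit for 3 members, with miR-379-5p and miR-411-5p lower and miR-127-3p higher, as it did for 26.9% of all miRs.

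In HC, 4 of the 8 members were lower, 3 were higher and miR-369-3p lay between the limits. Among all 568 miRs, 22.5% were lower and 43.5% were higher. Of 392 miRs at 10 RPM or more in HC or CTL, 17.1% were lower and 45.9% were higher, and the members past the limits were the same 5 as in aging. As there, only miR-127-3p reached 10 RPM in both libraries, and the minimum fixed the direction of the other 4, with miR-770-5p and miR-370-3p entering through HC and miR-379-5p and miR-411-5p through CTL. The interval lay wholly past a limit for 4 members, with all 3 miRs of the Meg3 end higher and miR-411-5p lower, as it did for 24.8% of all miRs.

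In SMK, 2 of the 8 members were lower, 3 were higher and 3 lay between the limits. Among all 568 miRs, 21.0% were lower and 32.0% were higher. Of 351 miRs at 10 RPM or more in SMK or CTL, 12.8% were lower and 30.5% were higher, and the members past the limits were miR-127-3p and miR-541-5p, both higher. MiR-541-5p reached 10 RPM only in SMK and could only be higher, and with 10 RPM required in CTL only miR-127-3p was left. Only the interval of miR-127-3p lay wholly past a limit, with its lower bound at 1.61, as it did for 13.9% of all miRs. The 3 comparisons share the CTL library, so a value peculiar to CTL would move all of them.

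**Figure D3:**
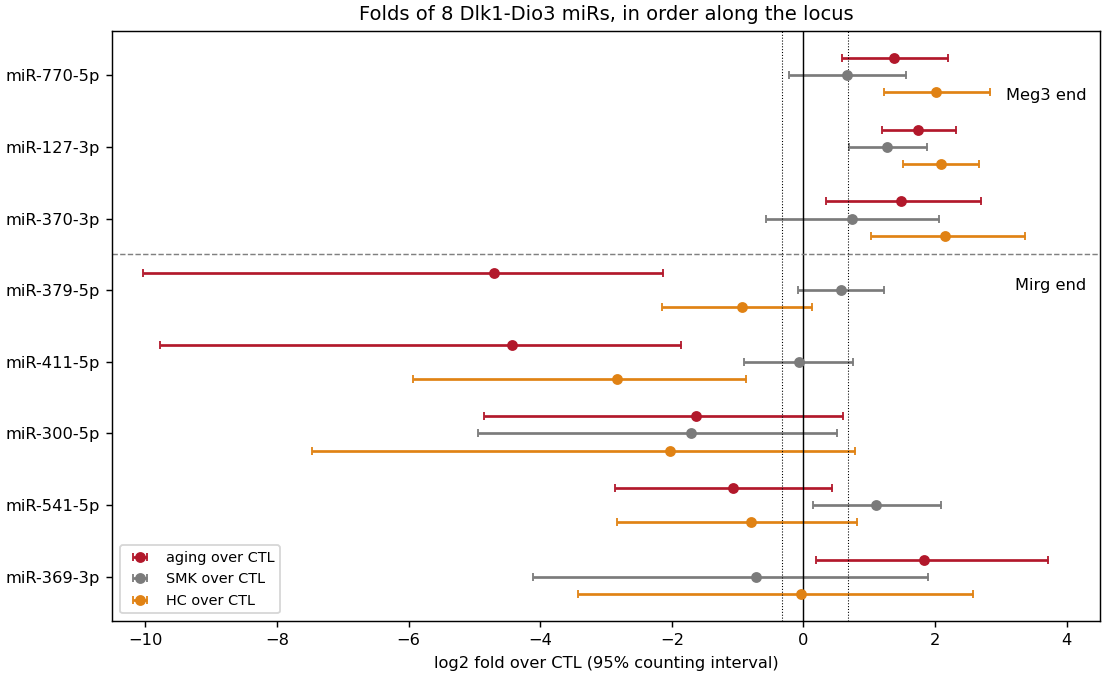
Log2 folds over CTL of the 8 members, in order along the locus from top to bottom, with exact 95% counting intervals and dotted lines at the limits of 0.8-fold and 1.6-fold. The 3 miRs of the Meg3 end lie right of 0 in each comparison, while miR-379-5p and miR-411-5p reach -4.70 and -4.43 in aging.

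Aging and HC were also set against SMK, which leaves CTL out. The Meg3 end was at 1.49-fold (1.14 to 1.94) in aging over SMK and 2.05-fold (1.57 to 2.69) in HC over SMK. The Mirg end was at 0.234-fold (0.137 to 0.383) in aging over SMK and 0.318-fold (0.180 to 0.531) in HC over SMK. The Meg3 end in aging over SMK lay below the limit of 1.6, and the intervals of its 3 members each held 1. MiR-369-3p went the other way from the Mirg end, at 5.85-fold (1.28 to 54.4) in aging over SMK, on 11 counts in aging and 2 in SMK. MiR-379-5p was at 0.0260-fold (0.000642 to 0.153) in aging over SMK and 0.353-fold (0.151 to 0.737) in HC over SMK. MiR-541-5p was at 0.222-fold (0.0661 to 0.593) in aging over SMK and 0.268-fold (0.0676 to 0.780) in HC over SMK. In aging over HC, miR-379-5p was at 0.0736-fold (0.00168 to 0.531), whereas the Mirg end as a whole was at 0.736-fold (0.370 to 1.48), an interval that holds 1.

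Base composition moved with the folds across the table. Over 325 miRs at 10 RPM or more with a RefSeq sequence, the log2 fold in aging was higher by 0.46 for each 10 percentage points of GC content (r = 0.37, Spearman's rho = 0.41 across miRs, which share their libraries). The slope was 0.31 in SMK (r = 0.37, rho = 0.46, 306 miRs) and 0.55 in HC (r = 0.47, rho = 0.49, 343 miRs). MiRs of at least 55% GC had a median log2 fold of 1.27 in aging, 0.88 in SMK and 1.64 in HC, against 0.03, 0.06 and 0.07 for those under 45%. The Meg3 end is GC-rich and the Mirg end is not, so each end was set against this line.

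With the line removed, which also centres the folds, the Meg3 end was at 1.46-fold in aging, 1.19-fold in SMK and 1.51-fold in HC. MiR-770-5p was then at 1.04-fold in aging, 0.808-fold in SMK and 1.18-fold in HC. MiR-370-3p was at 1.11-fold in aging, 0.845-fold in SMK and 1.30-fold in HC. MiR-127-3p was at 1.79-fold in aging, 1.49-fold in SMK and 1.75-fold in HC. The Meg3 end therefore lay near the level of other miRs of its GC content, with miR-127-3p the highest of its miRs. Log2 folds scattered about the line with a standard deviation of 1.23 in aging, 0.82 in SMK and 1.14 in HC. MiR-127-3p lay above the line by less than this in each comparison. The Mirg end was at 0.389-fold in aging, 1.05-fold in SMK and 0.316-fold in HC with the line removed. MiR-379-5p was at 0.0297-fold in aging and 0.334-fold in HC, and miR-411-5p at 0.0356-fold and 0.0891-fold. MiR-379-5p, miR-411-5p and miR-541-5p were thus no higher in aging and HC than without this step, whereas miR-369-3p, the poorest in GC, was at 5.88-fold in aging and 1.54-fold in HC.

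**Figure D4:**
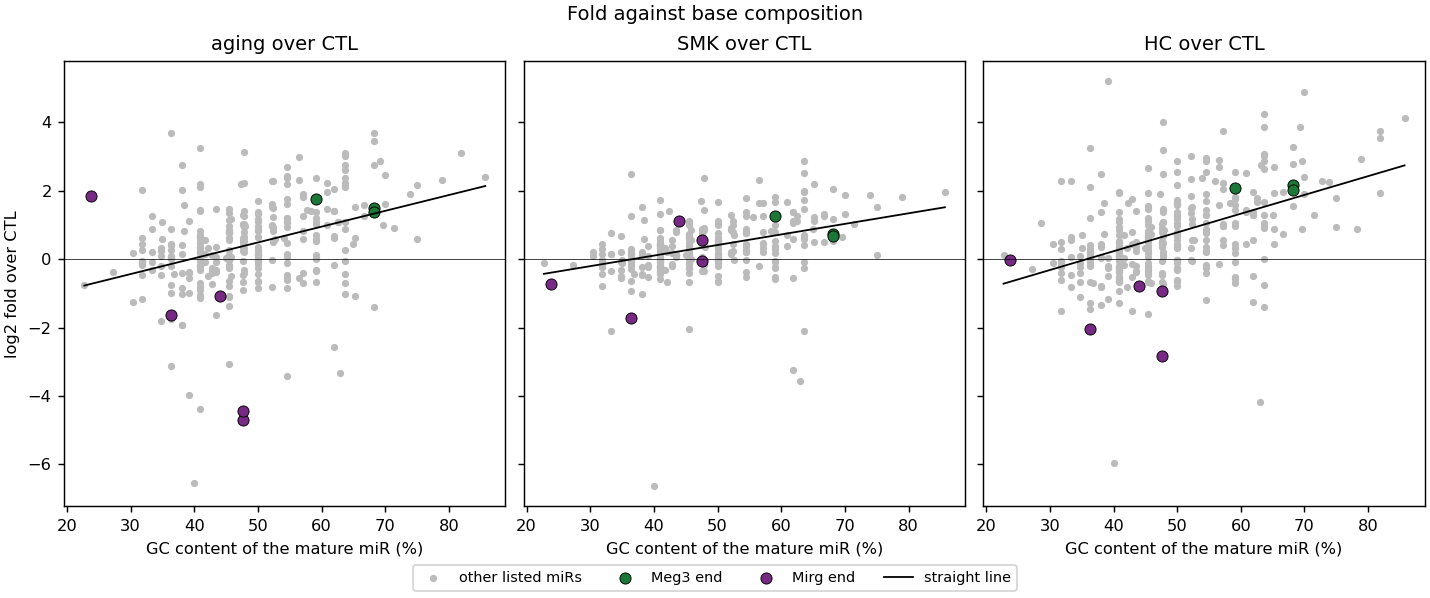
Log2 fold over CTL against the GC content of the mature miR in percent, for miRs at 10 RPM or more in either library and all 8 members, with the fitted straight line. In aging and HC the miRs of the Meg3 end lie close to the line or above it, whereas miR-379-5p and miR-411-5p lie far below it.

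Levels of miRs known from other cell types also differed between the libraries. In these bulk cultures, fewer cells of a type and less RNA per cell cannot be told apart. Of 15 listed mesenchymal and stromal miRs, 12 were lower and 1 was higher in aging, 3 were lower and 1 was higher in SMK, and 6 were lower and 2 were higher in HC. Over all 568 miRs, 24.8% were lower in aging, 21.0% in SMK and 22.5% in HC, so the count in SMK was near that of all miRs. They summed to 13317 RPM in aging PACs, 32874 RPM in SMK PACs and 24265 RPM in HC PACs, against 38157 RPM in CTL PACs. The 4 endothelial miRs, miR-126a and miR-139 with both arms, summed to 13891 RPM in aging PACs, 33785 RPM in SMK PACs and 18575 RPM in HC PACs, against 29175 RPM in CTL PACs. This sum was nearly all miR-126a-3p. Of the 4, 3 were lower and 1 was higher in aging and also in HC, and 1 was lower and 1 higher in SMK. The higher one was miR-139-3p, at 2.54-fold (1.78 to 3.65) in aging and 4.38-fold (3.10 to 6.26) in HC. The sums of both lists, though not each miR, were lower in aging and HC than in SMK and CTL, as was the Mirg end, and the part of these cell types in the result was not tested.

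Blood cell miRs were mixed. The 9 myeloid miRs summed to 102425 RPM in aging PACs, 89239 RPM in SMK PACs and 101034 RPM in HC PACs, against 89101 RPM in CTL PACs. Of the 9, 3 were lower and 1 was higher in aging, 3 were lower and 2 higher in SMK, and 0 were lower and 3 higher in HC. Over all 568 miRs, 24.8% were lower and 41.5% higher in aging. For SMK, 21.0% were lower and 32.0% higher, and for HC, 22.5% were lower and 43.5% higher. The myeloid miRs lower in aging were miR-511-3p at 0.297-fold (0.141 to 0.570), miR-511-5p at 0.162-fold (0.00373 to 1.14) and miR-146a-3p at 0.216-fold (0.0240 to 0.929). The 4 erythroid miRs summed to 47.8 RPM in aging PACs, 81.4 RPM in SMK PACs and 283.0 RPM in HC PACs, against 65.7 RPM in CTL PACs, which was 4.31-fold (3.55 to 5.24) in HC. The 3 lymphoid miRs summed to 2432 RPM in aging PACs, 2974 RPM in SMK PACs and 4348 RPM in HC PACs, against 1242 RPM in CTL PACs, at 1.96-fold, 2.39-fold and 3.50-fold. Nearly all of this sum was miR-342-3p. MiR-150-5p was at 0.986-fold in aging, 1.19-fold in SMK and 0.984-fold in HC. MiR-342-5p was at 0.965-fold in aging, 0.648-fold in SMK and 0.625-fold in HC. Like the Meg3 end, the lymphoid sum, though not each miR, was higher in all 3 CRF libraries and highest in HC. Unlike the Meg3 end, it was higher in SMK than in aging. The part of these cells in the result was not tested. MiR-223-3p and miR-142a-3p, which mark myeloid and all blood cells in that order, were at 28832 and 45474 RPM in aging, 31208 and 33972 RPM in SMK, and 37472 and 30954 RPM in HC, against 22760 and 36128 RPM in CTL, and no marker of the lists was at 0.

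By position, 5 further listed miRs lie in the locus under numbers outside the list. They summed to 45.3 RPM in aging PACs, 18.6 RPM in SMK PACs and 43.3 RPM in HC PACs, against 13.4 RPM in CTL PACs, and all 5 were higher in aging and in HC, as were 41.5% and 43.5% of all miRs. In HC the intervals of miR-1188-3p (0.456 to 13.1) and miR-453 (0.836 to 4.48) held 1. MiR-453, from an intron of Mirg, was at 14.7 RPM (23 counts) in aging, 9.58 RPM (16 counts) in SMK and 11.5 RPM (12 counts) in HC, against 5.90 RPM (15 counts) in CTL. It was at 2.48-fold (1.24 to 5.12) in aging, so that, like miR-369-3p, it was not low there although it lies among the Mirg miRs. Nor was miR-453 low in HC, at 1.96-fold. MiR-1188-3p, from an intron of Rian, was at 4.05-fold (1.17 to 17.7) in aging on 10 counts. MiR-3544-5p and miR-3071-5p, which come from the opposite strand, were at 3.51-fold (1.24 to 11.3) and 2.08-fold (0.690 to 6.58). MiR-1906, which also has a second locus, was at 13.0-fold (3.05 to 116.2) in aging, on 16 counts in aging and 2 in CTL.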

How the data were processed

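Total RNA of PACs was pooled per condition before 1 miR library was made for each of aging, SMK, HC and CTL. According to the methods, reads of QIAseq libraries were mapped stepwise with bowtie to mature miRs of miRBase, with up to 2 mismatches in the last step. The submitters' processing notes instead list HTSeq 0.5.4, TopHat2 2.0.10, bcl2fastq 2.20 and mm10, a difference that could not be settled here. The deposited values are RPM, normalized by the authors to library size. Dividing them by the smallest value of each library gave whole counts for 100% of values (tolerance 0.001). Whether reads with the same molecular identifier were merged is not given in the sources used here. In each library the recovered total was below the number of miRNA reads in the paper's supplement, a difference left unexplained. A count test across miRs was not run, since 1 library per condition leaves no spread to estimate.

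Members were found by miR number, and all 8 were named, as the rule of the 24 most abundant covers them. The members, lists and limits were chosen with earlier results of these data known. Alternatives were edgeR's TMM factors, the median ratio over the 123 miRs that reached 100 RPM everywhere, totals without miR-21a-5p, other minimum levels, pseudocounts of 1 and 10 RPM, limits of 0.6 and 2, and removal of a straight line on GC content. Scaling by the median ratio shifts the log2 folds of aging by -0.15, of SMK by -0.16 and of HC by -0.15, and TMM by -0.39, -0.24 and -0.43. Sequences and positions are from RefSeq (GRCm38.p6) and hosts from GENCODE M21. Intervals were tested on simulated data. Python 3.11.15, numpy 2.4.6, scipy 1.17.1, pandas 2.3.3, matplotlib 3.10.9, R 4.3.3 and edgeR 4.0.16 were used.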

Additional observations from a re-analysis of the deposited data

How the results depend on the processing

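The split between the ends kept its direction in aging and HC under the median ratio, TMM, the GC line and without the most abundant miR of each end. With the GC line, however, the Meg3 end fell within the limits, at 1.46-fold in aging and 1.51-fold in HC. Without both miR-379-5p and miR-411-5p, an alternative chosen after the data were seen, the Mirg end in aging was within the limits, at 0.911-fold. There 11 of its 18 counts came from miR-369-3p. The sum over the locus did not keep its direction in aging or HC. In aging it was at 1.08-fold with TMM, 0.861-fold without miR-127-3p, 0.826-fold with the GC line removed, 2.61-fold as the median of members at 10 RPM and 1.11-fold as the median of all members, the last chosen after the data were seen. In HC these values were 1.46, 1.30, 0.801, 4.04 and 0.751, so that it reversed with the GC line and with the median of all members. In SMK the sum was at 1.10-fold with the GC line removed. For the ends, the GC line was also chosen after the data were seen, and it brought the Meg3 end to 1.46-fold in aging, 1.19-fold in SMK and 1.51-fold in HC, where TMM gave 3.13-fold. MiR-370-3p in SMK reversed to 0.845-fold with the GC line. The GC line changes the side of a limit for GC-rich miRs by its construction, and the cause of the trend was not tested.

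Of the members past the limits at 10 RPM, 5 in aging, 2 in SMK and 5 in HC, there were 8 in aging and 5 in SMK without a minimum. With 10 RPM required in CTL there were 3 in aging, 1 in SMK and 3 in HC. With intervals wholly past a limit there were 3 in aging and 1 in SMK, and with a pseudocount of 10 RPM 1 in SMK. No member reached 100 RPM, so the minimum of the study gave no value. No paired analysis was possible because each condition has 1 library, and no library could be left out for the same reason. Members with 1 or 2 counts in a library set the widest limits on the folds.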

Other observations

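Other imprinted miRs were measured as well. The 4 listed arms of miR-335, made within Mest, and of miR-296 and miR-298, made at the Gnas locus, summed to 49.7 RPM in aging PACs, 181.4 RPM in SMK PACs and 155.9 RPM in HC PACs, against 121.2 RPM in CTL PACs. All 4 were lower in aging, as were 24.8% of all 568 miRs. MiR-335-5p was at 29.3 RPM in aging PACs, 80.8 RPM in SMK PACs and 64.5 RPM in HC PACs, against 69.2 RPM in CTL PACs, and its fold in aging was 0.423 (0.299 to 0.589). MiR-298-5p was at 0.478-fold (0.286 to 0.769) in aging and 2.34-fold (1.75 to 3.16) in SMK. MiR-296-3p was at 0.381-fold (0.152 to 0.839) in aging and 2.95-fold (1.83 to 4.79) in HC.

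The 14 listed miRs of the Sfmbt2 intron family, some of which are made at more than 1 locus, summed to 495.9 RPM in aging PACs, 299.4 RPM in SMK PACs and 279.1 RPM in HC PACs, against 206.2 RPM in CTL PACs. Of the 14, 10 were higher and 1 was lower in aging, 6 were higher and 3 lower in SMK, and 4 were higher and 5 lower in HC. Among all 568 miRs, 41.5% were higher and 24.8% lower in aging. For SMK, 32.0% were higher and 21.0% lower, and for HC, 43.5% were higher and 22.5% lower.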
